A study of Mus musculus with 4 samples.

Results

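The 10 genes described here encode the enzymes that cut and rejoin antigen receptor genes: Rag1 and Rag2, Dntt, and the end joining genes Dclre1c, Xrcc4, Xrcc5, Xrcc6, Lig4, Prkdc and Nhej1. They were chosen by name for this role, as 10 of the 21896 protein-coding genes of a RefSeq table, with earlier results of these data known. The accessible regions called around them were listed. The study measured chromatin accessibility by ATAC-seq, in which a transposase inserts sequencing adapters into open DNA. The cells were double-positive (DP) thymocytes, which carry both CD4 and CD8, sorted from the thymus of C57BL/6 mice. The knockout (KO) mice carried floxed Chaf1b alleles and Cd4-cre, and the wild type (WT) mice carried the same floxed alleles and no Cre. Cd4-cre acts from about the DP stage onward, so Chaf1b would be lost late in thymocyte development. How far it was lost in the sorted cells was not measured here, and the labels give no age of the mice. Each group had 2 replicates of 50000 sorted cells, and both replicates of a group were joined into 1 deposited list of regions, so every KO value below is 1 number set against 1 WT number and no test between the groups was possible.

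In developing lymphocytes, RAG1 and RAG2 together cut DNA beside the variable, diversity and joining segments of antigen receptor genes. The cut leaves hairpin ends that are repaired by classical non-homologous end joining. Ku70 and Ku80 bind the ends and recruit the kinase DNA-PKcs, the nuclease Artemis opens the hairpins, and XRCC4, DNA ligase IV and XLF seal them, while terminal deoxynucleotidyl transferase (TdT, from Dntt) adds bases without a template. DP thymocytes are the stage at which the T cell receptor alpha chain is assembled. Rag1, Rag2 and Dntt are restricted to developing lymphocytes, whereas the end joining genes work in most cells.

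The KO list held 7645 regions and the WT list 15215. MACS2 writes the fold enrichment of a summit and its p from the number of reads piled up there and a background, so both could be solved, and all summits of both lists gave whole reads. The genome background was 1.03 reads in KO and 1.37 in WT, so depth in KO was 0.752 times that in WT. The narrowest region of either list was 200 bp. Chaf1b itself had a region at a gene end in both lists, with 13 reads in KO and 14 in WT, but the labels do not place the loxP sites, so it does not check the deletion. Of 10 DP thymocyte markers, 1 had a region at a gene end in KO (Cd8b1) and 5 in WT, and those with none in either list included Cd4, Cd8a and Cd3e. Of 19 markers of B, myeloid, erythroid and stromal or epithelial cells, 0 had one in KO and 1 in WT, the B cell factor gene Ebf1. Over all protein-coding genes, 21.1% had a gene-end region in KO and 34.6% in WT. Beside these shares, such small counts do not check the cell type.

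Among the 10 genes, only end joining genes had a region at a gene end in both lists. Within 1000 bp of an annotated gene end, 4 of the 10 genes had a region in KO, where 21.1% of all protein-coding genes had one, and 7 of the 10 had one in WT, where 34.6% of all genes did. The 4 genes with a region in both lists were Dclre1c, Xrcc4, Prkdc and Nhej1. Rag1, Rag2 and Xrcc5 had a gene-end region in WT only, 0 genes had one in KO only, and Dntt, Xrcc6 and Lig4 had none at their annotated ends. The genes with a WT region were thus also called in KO in 4 of 7 cases (57.1%), and 59.4% of all genes called in WT were. The share among these genes was therefore close to that of genes in general. Genes were also ranked by WT fold enrichment and divided into quintiles, in which the share also called in KO was 22.3%, 36.9%, 60.7%, 80.6% and 96.6%, weakest first. The strongest quintile held Dclre1c, Xrcc4 and Prkdc, with a KO region in 3 of 3. Quintile 2 held Rag1, Xrcc5 and Nhej1, with a KO region in 1 of 3, quintile 3 held Rag2, and quintiles 1 and 4 held 0 of these genes. In KO the median fold enrichment at gene ends was 7.25 over the 4 genes called there and 6.87 over all genes, and in WT it was 7.19 over the 7 genes and 7.24 over all genes. Counted over the whole windows, which reached 100 kb beyond Rag1, Rag2 and Dntt and 10 kb beyond the other genes, the KO list had 9 regions and the WT list 24. All 9 from KO had a WT counterpart, as 92.6% of the whole KO list did. Of the 24 from WT, 10 had a KO counterpart (41.7%, exact Clopper-Pearson 95% interval 22.1 to 63.4), against 46.2% of the whole WT list. Intervals here cover counting error only, and PCR copies and the spread between mice are not in them. The interval of a share also treats the regions as independent, though some are close neighbours.

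Rag1 and Rag2 lie next to each other on chromosome 2, pointing toward each other, with Rag2 at 101624712 to 101632528 on the plus strand and Rag1 at 101638252 to 101649532 on the minus strand (GRCm38, which is mm10). Their windows together held 2 regions in KO and 8 in WT. The starts of both genes were called in WT and in neither case in KO. The 250 bases before each start are shown because these are the bases at which the lists part, and capitals mark matches to the motifs searched for, which are named after the sequences.
Rag1, chr2:101649533-101649782, minus strand: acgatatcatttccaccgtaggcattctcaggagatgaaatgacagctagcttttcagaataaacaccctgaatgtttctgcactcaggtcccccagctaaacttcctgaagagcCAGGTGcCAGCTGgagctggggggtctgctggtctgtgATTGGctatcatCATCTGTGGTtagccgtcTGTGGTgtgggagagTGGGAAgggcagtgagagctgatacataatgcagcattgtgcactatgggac
Rag2, chr2:101624462-101624711, plus strand: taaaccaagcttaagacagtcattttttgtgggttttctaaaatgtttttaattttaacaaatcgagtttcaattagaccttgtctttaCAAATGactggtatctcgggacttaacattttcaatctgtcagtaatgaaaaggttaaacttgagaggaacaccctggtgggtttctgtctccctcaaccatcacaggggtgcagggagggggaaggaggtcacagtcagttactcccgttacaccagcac
Both are RefSeq sequences of GRCm38.p6, written 5′ to 3′ up to the last base before the start.

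The WT region at the Rag1 start (101649400 to 101649745) covered 213 of the bases printed, with its summit 16 bp inside the gene. It held 25 reads at the summit (95% Poisson interval 16.2 to 36.9), with a fold enrichment of 6.57, and no region was called there in KO. At the KO depth those WT reads would come to 18.8. The WT background around the Rag1 start was 2.96, which stands for 148 reads in 10 kb where the genome average was 68.6. Reads of the called region itself were not taken out of this number, so it does not show how far the raised stretch reached. The printed Rag1 sequence held 3 E-boxes (CANNTG, bound by E proteins such as E2A and HEB), of which CAGCTG lay 128 to 123 bases before the start. It also held 2 Runx cores (TGTGGT), of which the more distant overlapped an E-box, a reversed CCAAT box and an Ikaros core (TGGGAA). Of all 32851 promoters in the RefSeq table, 66.2% held an E-box in the same 250 bases, 13.0% held CAGCTG, 14% a Runx core, 33.8% a CCAAT box and 21.6% an Ikaros core. Both strands were searched, CAGCTG counts as an E-box too, and a match is a description of letters and not a bound site.

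At the Rag2 start, the WT region (101624571 to 101624810) had its summit 15 bp before the start, covered 141 of the bases printed, and held 22 reads (13.8 to 33.3) with a fold enrichment of 7.19. No region was called there in KO, where the WT reads scaled to depth would come to 16.5. The Rag2 sequence held 1 E-box and none of the other motifs searched. This E-box lay 161 to 156 bases before the start, outside the 141 bases that the WT region covered. Among all WT regions with 20 to 29 summit reads, 65.9% also had a KO region. The starts of Rag1 and Rag2 both fall in that range, so by read number a missing KO region was the less common outcome but not a rare one. By WT fold enrichment, 36.9% of genes in the quintile of Rag1 and 60.7% in that of Rag2 were also called in KO. By that measure a missing KO region was the more common outcome for Rag1. In pooled cells, fewer cells open at a site and less opening per cell cannot be told apart.

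Away from the starts, the strongest region of the Rag window was called with almost the same strength in both lists. It lay 16.0 kb before the Rag2 start, inside Iftap, a gene that runs on the opposite strand and overlaps Rag2. It had 25 reads (16.2 to 36.9) and a fold enrichment of 12.7 in KO (101608550 to 101608852), and 28 reads (18.6 to 40.5) and 12.2 in WT (101608513 to 101608869), and the 2 summits lay 6 bp apart. By fold enrichment it stood at percentile 96.7 of the KO list and percentile 95.2 of the WT list. At equal depth the KO reads were 1.19 times the WT reads (0.664 to 2.11). The other region called in both lists lay inside the long non-coding RNA gene Gm39887, 73.2 kb before the Rag2 start in KO and 73.1 kb in WT. It held 17 reads (9.90 to 27.2) in KO and 18 (10.7 to 28.4) in WT, a KO to WT ratio of 1.26 at equal depth (0.608 to 2.58). Its fold enrichment was 7.09 in KO and 5.28 in WT, the wider gap coming with a background of 1.54 in KO and 2.60 in WT. Rag transcription in mouse DP thymocytes is known to need an anti-silencer element far upstream of Rag2, which counteracts a silencer between the 2 genes. The labels and files give no coordinates of these elements, and no region was assigned to either.

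The other 4 WT regions of the Rag window had no KO counterpart and were weaker, with 13 to 17 reads. A region 72.1 kb before the Rag2 start, also inside Gm39887, had 17 reads and a fold enrichment of 4.97. A region 43.3 kb before the start, inside Iftap, had 13 reads and 5.47. A region between the 3′ ends of the 2 Rag genes, 882 bp from the end of Rag1 and 4611 bp from that of Rag2, had 15 reads and 5.71. The fourth, inside Traf6, which encodes a ubiquitin ligase of cytokine signalling, lay 54.3 kb after the Rag2 start with 14 reads and 4.97. It spanned 101678818 to 101679017, and Traf6 begins at 101678420 on the plus strand. Within 1000 bp of that end, it counts as a gene-end region of Traf6. Of all WT regions with 7 to 14 reads 13.3% had a KO region, and of those with 15 to 19 reads 32.2%, so most regions this weak were missing from the KO list anywhere in the genome. Outside the window the next region above it lay 244 kb away inside Ldlrad3 in KO and 137 kb away inside Commd9 in WT.

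**Figure D1:**
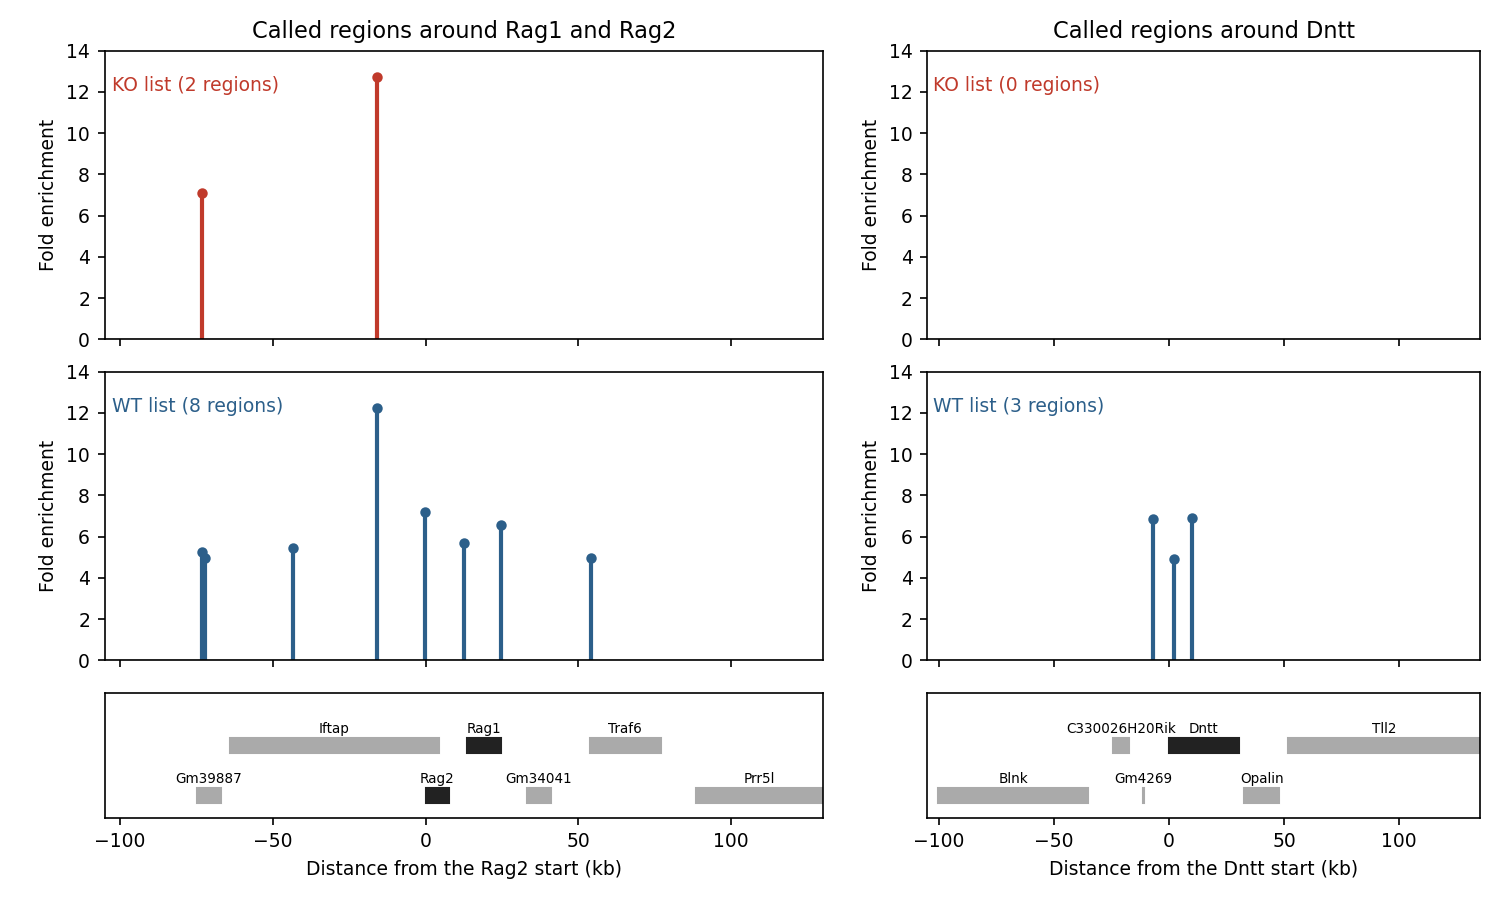
Called regions around Rag1 and Rag2 (left) and around Dntt (right), with the KO list in the upper row, the WT list in the middle row and the annotated genes below, the described genes in black. The horizontal axis is the distance in kb from the Rag2 or Dntt start and each stem is the authors' fold enrichment of 1 region; the stem 16.0 kb before Rag2 reaches 12.7 in KO and 12.2 in WT, while the stems at both Rag starts and all 3 around Dntt appear in WT only.

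Dntt (chromosome 19, 41029275 to 41059525, plus strand) had 0 regions in KO and 3 in WT over its body and 100 kb on each side. Its start was called in neither list. The 250 bases before it are shown beside those of the Rag genes because Dntt shares their restriction to developing lymphocytes.
Dntt, chr19:41029025-41029274, plus strand: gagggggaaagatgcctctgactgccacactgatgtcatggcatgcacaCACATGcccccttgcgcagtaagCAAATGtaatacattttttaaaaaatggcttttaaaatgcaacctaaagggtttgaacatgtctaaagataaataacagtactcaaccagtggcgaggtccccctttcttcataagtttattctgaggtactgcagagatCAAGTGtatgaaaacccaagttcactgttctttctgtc
This RefSeq GRCm38.p6 sequence held 3 E-boxes and none of the other motifs searched.

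The Dntt region with the most reads in WT lay 6.84 kb before the start, between Dntt and the pseudogene Gm4269 (41022258 to 41022604), with 25 reads (16.2 to 36.9) and a fold enrichment of 6.88. Scaled to the KO depth this would be 18.8 reads. The other WT regions lay inside the gene. The nearer, 1.94 kb after the start (41031121 to 41031321), had 15 reads (8.40 to 24.7) and a fold enrichment of 4.94, and began 1846 bp from the gene end, outside the 1000 bp that count as a gene end here. The farther, 10.1 kb after the start (41039210 to 41039440), had 16 reads (9.15 to 26.0) and a fold enrichment of 6.91, close to that of the region before the start. The exact interval of the share of these regions also called in KO, 0 of 3, reaches 70.8%. Below the Dntt window, the nearest region was at Ccnj in both lists, 97.9 kb outside the window, with 13 reads in KO and 20 in WT.

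The proteins that act after the RAG cut are taken in the order of repair. Xrcc6 and Xrcc5 encode Ku70 and Ku80, which slide onto broken ends. At the Xrcc6 start (chromosome 15, 82016369, plus strand) a region was called in WT only, at 82016203 to 82016571, with its summit 4 bp inside the gene, 15 reads (8.40 to 24.7) and a fold enrichment of 5.56. This start lies 149 bp from that of Desi1, which runs the other way, and the region covers both starts. The annotated Xrcc6 gene begins at 81987833, well before this start, so that the region did not count as a gene-end region. Inside Xrcc6, 11.5 kb after the start in KO and 11.6 kb in WT, lay a stronger region present in both lists. It held 14 reads (7.65 to 23.5) in KO and 26 (17.0 to 38.1) in WT, a ratio of 0.716 at equal depth (0.345 to 1.42), and its fold enrichment was 5.47 in KO and 8.88 in WT.

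Xrcc5 (chromosome 1, 72307417 to 72394953) had 0 regions in KO and 1 in WT over its body and 10 kb on each side. The WT region (72307290 to 72307498) lay at the start with 14 reads (7.65 to 23.5) and a fold enrichment of 6.10. Scaled to the KO depth this is 10.5 reads. In the range of 7 to 14 reads 13.3% of all WT regions had a KO region, so the absence of Xrcc5 from the KO list was the common outcome at its strength.

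Prkdc encodes DNA-PKcs, the kinase that Ku brings to the ends, and Dclre1c encodes Artemis, the nuclease that DNA-PKcs activates to open hairpins. Both had their strongest region in both lists. The low-coordinate end of Prkdc (chromosome 16, 15637444 to 15842239) lies 44 bp from the high-coordinate end of Mcm4, which encodes a subunit of the replicative helicase. No start site or strand was available for either gene, so whether these ends are starts is not given here. KO had 1 region there of 729 bp (15637278 to 15638006) with 20 reads (12.2 to 30.9) and a fold enrichment of 7.61. This KO region and the stronger WT region overlapped both genes, so neither belongs to Prkdc alone. WT had 2 regions over the same stretch, of 392 bp (15637262 to 15637653) with 40 reads (28.6 to 54.5) and 10.0, and of 226 bp (15637798 to 15638023) with 18 reads (10.7 to 28.4) and 4.75. The KO summit lay 1 bp from the summit of the stronger WT region, and at equal depth it held 0.665 times its reads (0.368 to 1.16). The wide KO region and the WT pair cover nearly the same bases, given as 1 region in KO and as 2 in WT. Whether they are 1 open stretch was not tested.

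Dclre1c (chromosome 2, 3424061 to 3474211) had the highest read number of all 24 WT regions at its start. It held 29 reads (19.4 to 41.6) and a fold enrichment of 10.8 in KO (3423829 to 3424231), and 54 reads (40.6 to 70.5) and 13.7 in WT (3423816 to 3424273), 0.714 times the WT reads at equal depth (0.438 to 1.14). The summits lay 11 bp apart, 75 bp before the start in KO and 86 bp in WT. Inside the gene, 7.01 kb after the start in KO and 6.99 kb in WT, a region held 19 reads (11.4 to 29.7) in KO and 22 (13.8 to 33.3) in WT, a ratio of 1.15 at equal depth (0.588 to 2.22). A region at the far end of Dclre1c was called in WT only (3474938 to 3475227, 20 reads, fold enrichment 7.29). It lies at the start of Suv39h2, a histone H3 lysine methyltransferase gene that runs the other way and overlaps the end of Dclre1c.

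Xrcc4, Lig4 and Nhej1 encode the proteins that seal the ends. At the Xrcc4 start (chromosome 13, 90089608, minus strand), which lies 59 bp from that of Tmem167, the KO region (90089550 to 90089946) held 15 reads (8.40 to 24.7) with a fold enrichment of 6.90, and the WT region (90089266 to 90089964) held 31 (21.1 to 44.0) with 10.3. At equal depth KO had 0.643 times the WT reads (0.323 to 1.23). A WT region 82.1 kb inside Xrcc4, with 13 reads and a fold enrichment of 5.90, had none in KO. Lig4 (chromosome 8, 9970020 to 9977680, minus strand) has 2 RefSeq starts, of which the more upstream, 37 bp from the start of Abhd13, was called in neither list. The inner start was called in both, with 13 reads (6.92 to 22.2) and a fold enrichment of 4.67 in KO (9976396 to 9976598), and 24 reads (15.4 to 35.7) and 5.71 in WT (9976153 to 9976624). The ratio at equal depth was 0.720 (0.337 to 1.47). This WT region ended 1056 bp from the annotated gene end, just outside the 1000 bp window. A further WT region 0.890 kb after the inner start, with 18 reads and a fold enrichment of 4.40, was absent from the KO list. At Nhej1 (chromosome 1, 74967346 to 75125226, minus strand), which encodes XLF, KO had a region of 209 bp (75125069 to 75125277) with 11 reads (5.49 to 19.7) and a fold enrichment of 5.36, its summit 4 bp inside the gene. WT had a region of 713 bp (75124596 to 75125308) with 17 reads (9.90 to 27.2) and 6.34, its summit 517 bp inside the gene. The KO region lay wholly inside the WT region, and the summits, 513 bp apart, do not mark the same spot.

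The starts of the end joining genes that stand for the outcomes above are shown for comparison with those of the Rag genes, Dclre1c and Xrcc4 as starts called in both lists and Xrcc6 as a start called in WT only.
Dclre1c, chr2:3423881-3424130, plus strand: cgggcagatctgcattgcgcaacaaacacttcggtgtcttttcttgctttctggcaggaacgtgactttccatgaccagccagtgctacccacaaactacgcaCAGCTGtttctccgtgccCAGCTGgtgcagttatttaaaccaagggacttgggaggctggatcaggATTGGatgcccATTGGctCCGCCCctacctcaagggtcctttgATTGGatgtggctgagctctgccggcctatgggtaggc
Xrcc4, chr13:90089609-90089858, minus strand: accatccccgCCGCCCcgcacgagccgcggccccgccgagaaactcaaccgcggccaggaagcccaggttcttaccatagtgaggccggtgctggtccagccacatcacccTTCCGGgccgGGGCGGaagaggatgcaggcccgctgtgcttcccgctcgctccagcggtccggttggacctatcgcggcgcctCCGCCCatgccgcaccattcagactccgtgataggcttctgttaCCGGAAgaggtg
Xrcc6, chr15:82016119-82016368, plus strand: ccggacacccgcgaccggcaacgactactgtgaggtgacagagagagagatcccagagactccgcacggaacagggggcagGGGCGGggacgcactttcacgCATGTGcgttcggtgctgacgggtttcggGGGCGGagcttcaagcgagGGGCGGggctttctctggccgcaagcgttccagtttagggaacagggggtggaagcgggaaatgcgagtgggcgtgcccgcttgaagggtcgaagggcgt
These RefSeq GRCm38.p6 sequences are again the 250 bases before the start, 5′ to 3′, with motif matches in capitals. Dclre1c held 2 E-boxes, both CAGCTG, with 3 reversed CCAAT boxes and 1 GC box (GGGCGG, bound by factors such as SP1) on the reverse strand. Xrcc4 held 3 GC boxes and 2 ETS cores (CCGGAA), and Xrcc6 held 3 GC boxes and 1 E-box. A GC box was found in 32.7% and an ETS core in 12.0% of all promoters of the table. Of the 10 promoters that the table gives for 9 of the genes, 5 held a GC box, and 0 of those 5 were of Rag1, Rag2 or Dntt. The TATA box (TATAAA) was in 0 of the 10 and in 12.4% of all promoters, the NRF1 motif in 1 (the upstream Lig4 start) and in 0.782%, and the YY1 core in 0 and in 0.207%. Prkdc has no entry.

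The base composition of the starts differed between the lymphocyte genes and most of the end joining genes. CpG observed over expected, from 250 bases before to 50 after the start, was 0.165 at Rag1, 0.216 at Rag2 and 0.149 at Dntt. It was 0.505 at Dclre1c, 0.523 at Nhej1, 0.527 at Xrcc5, 0.857 and 0.938 at the inner and upstream starts of Lig4, 0.970 at Xrcc4 and 1.04 at Xrcc6. For example, Dclre1c at 0.505 was called in both lists and Xrcc6 at 1.04 in WT only. Over all RefSeq starts of protein-coding genes, 18.7% had a KO region and 31.0% a WT region. Below a ratio of 0.6, 9.57% of starts had a WT region, and 53.6% of these also had a KO region. At 0.6 or above, 54.5% of starts had a WT region, and 59.5% of these also had one in KO. Among starts with 20 to 29 WT reads, the range of both Rag starts, a KO region was found at 63.1% (57.5 to 68.5) of starts below 0.6 and at 72.6% (70.4 to 74.7) of the others. A cut of 0.6 for this ratio and the ranges of reads were chosen after the lists had been seen.

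**Figure D2:**
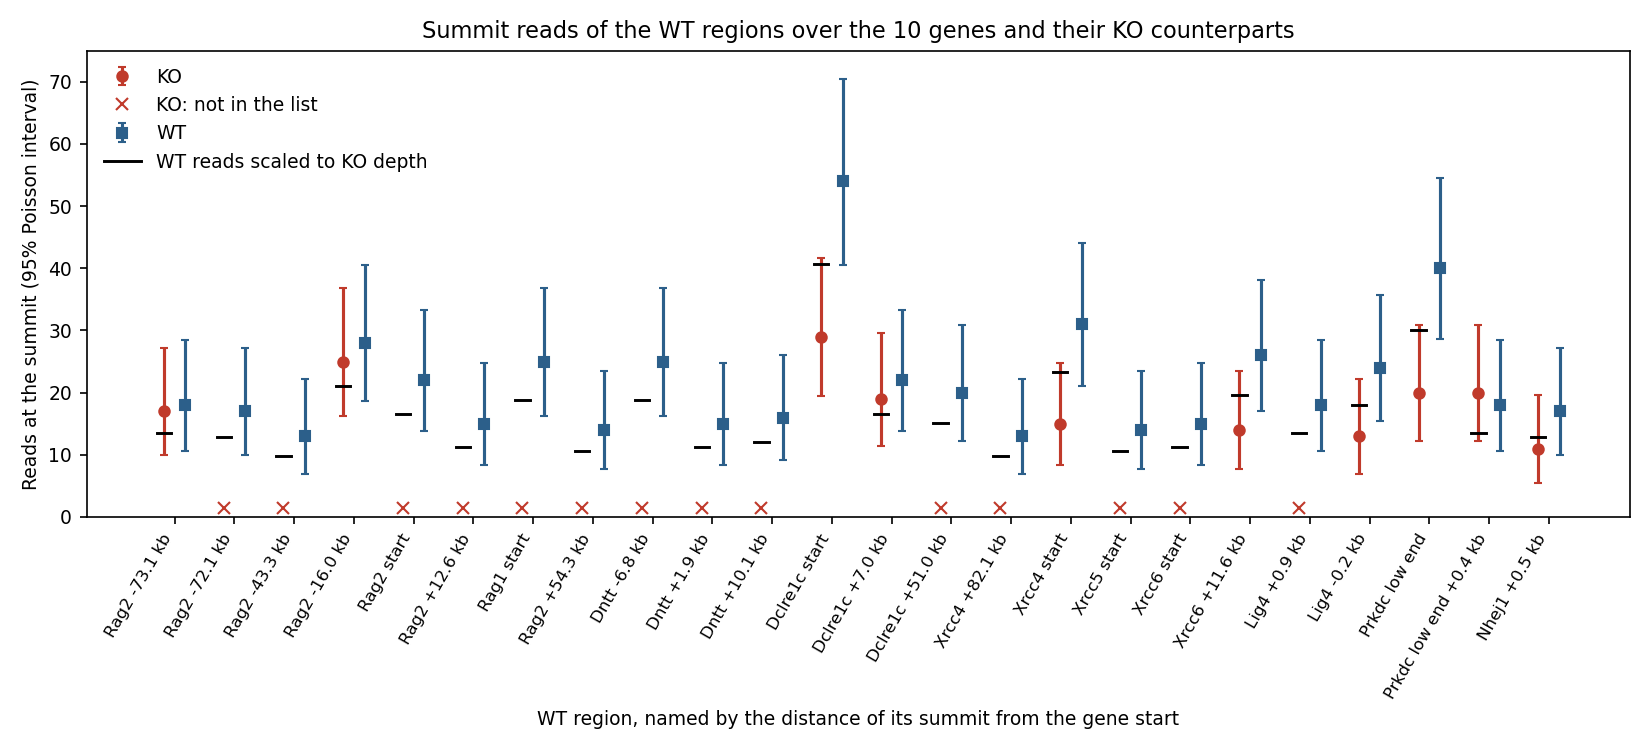
Reads at the summit of each of the 24 WT regions over the 10 genes (squares) and of the KO region that overlaps it (circles, left of each square), with exact 95% Poisson intervals; crosses stand for WT regions without a KO region and have no read value. The horizontal axis names each region by the distance of its summit from the gene start, black lines give the WT reads scaled to the KO depth, and the highest WT value, 54 at the Dclre1c start, is paired with 29 in KO.

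Among the regions called in both lists, no KO to WT ratio at equal depth parted from 1 beyond counting error, which was wide at these read numbers. The 10 pairs had KO to WT ratios from 0.643 at the Xrcc4 start to 1.48 at the weaker WT region of Prkdc, which shares its KO region with the stronger, and the 95% interval held 1 in 10 of 10. The ratio was below 1 in 6 pairs and above 1 in 4. The KO summits held only 11 to 29 reads, and even the lowest ratio had an interval of 0.323 to 1.23. An interval that holds 1 therefore does not show equal reads. At Nhej1 and at the weaker Prkdc region the paired summits lay 513 and 412 bp apart. The median was 0.790 over the 10 pairs and also over the 8 of them that were one-to-one. Over all 6875 one-to-one pairs of the lists it was 0.871, and their middle 50% ran from 0.725 to 1.06. Over the 5662 of these with summed reads in the range of the 10 pairs, it was 0.846 (middle 50% 0.704 to 1.01). A region enters this comparison only when it has enough reads to be called in KO, so the ratios leave out every site that was lost from the list.

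**Figure D3:**
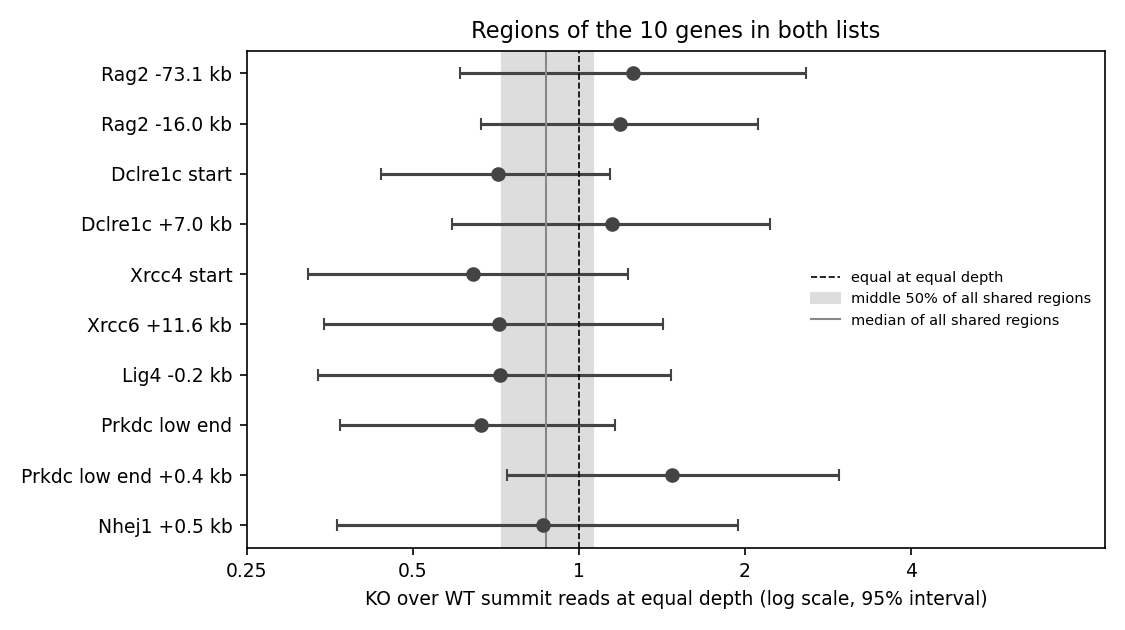
KO over WT summit reads at equal depth for the 10 pairs of regions called in both lists (points, with 95% intervals from the exact binomial interval of the KO share of reads), on a log axis. The dashed line marks equal reads, the grey line and band the median of 0.871 and the middle 50% of all 6875 one-to-one pairs; all 10 intervals cross the dashed line.

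The 14 regions not called in KO held 13 to 25 reads in WT. How many KO reads lay at these sites could not be read from the lists, and the part of the lower KO depth in their absence was not tested. Set against all WT regions of the same read number, the 24 regions were close to the rest. With 7 to 14 reads, 0 of 4 had a KO region and 13.3% of all WT regions did. With 15 to 19 reads 3 of 9 had one (32.2% of all), with 20 to 29 reads 4 of 8 (65.9%), with 30 to 49 reads 2 of 2 (94.4%) and with 50 or more 1 of 1 (97.2%). Within 20 to 29 reads, the windows of Rag1, Rag2 and Dntt kept 1 of 4 regions and those of the end joining genes 3 of 4, numbers too small to compare. Over all reads, 2 of 8 WT regions of the Rag window had a KO region (25.0%, 3.19 to 65.1), 0 of 3 of the Dntt window, and 8 of 13 of the end joining windows (61.5%, 31.6 to 86.1). These intervals overlap, and 3 of the end joining regions but 0 of those around the Rag genes and Dntt held 30 or more WT reads.

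**Figure D4:**
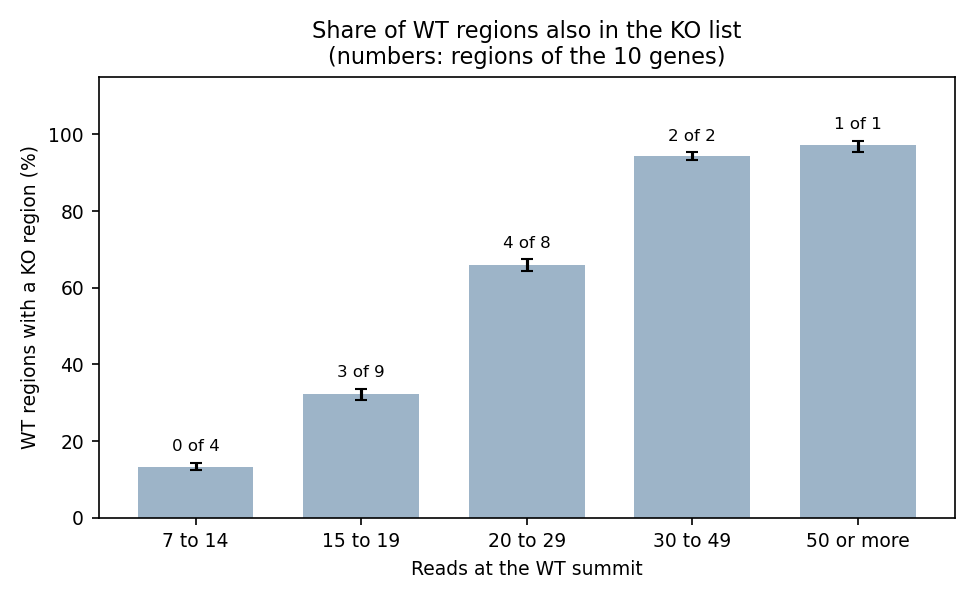
Share of all WT regions that overlap a KO region (bars, percent, starting at 0) by the number of reads at the WT summit, with exact 95% intervals; the numbers above the bars count the WT regions of the 10 genes in each range that overlap a KO region. The bars climb from 13.3% at 7 to 14 reads to 97.2% at 50 or more, and the 24 regions follow with 0 of 4 in the lowest range and 1 of 1 in the highest.

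Of 39 other genes of the pathway, 16 had a gene-end region in KO, where 21.1% of all genes had one, and 22 had one in WT, where 34.6% did, and 16 of these 22 (72.7%) were in both lists, against 59.4% of all genes called in WT. Of 20 cofactors of V(D)J recombination and accessories of end joining, 11 had a region in KO and 14 in WT. Hmgb2, a DNA-bending cofactor of RAG cleavage, had 17 reads in KO and 50 in WT, which come to 37.6 at the KO depth. Atm, the kinase that signals double-strand breaks, had 21 reads in KO and 42 in WT (31.6 at the KO depth). Aplf, a scaffold that binds Ku, had 14 in KO and 35 in WT (26.3 at the KO depth), and Mre11a, a nuclease of the MRN complex, had 14 in KO and 32 in WT (24.1). Cyren, a regulator of end joining, had 13 in KO and 30 in WT (22.6 at the KO depth). Hmgb1, another DNA-bending cofactor, had 13 in KO and 14 in WT (10.5 at the KO depth), and Polm, a polymerase related to TdT, had 13 in KO and 16 in WT (12.0). At equal depth KO was thus lower at the first 5 of these genes and higher at Hmgb1 and Polm, with no test. Those 5 held the most WT reads of all 39 genes, so they do not stand for the rest. Over all one-to-one pairs of the lists the median KO to WT ratio at equal depth was 0.871. The KO and WT regions of a gene were not required to overlap in this count, so they may be different sites. Called in both lists as well were Tdp2, H2ax, Mdc1 and Nbn. They held 12, 12, 13 and 8 reads in KO, against 11.3, 13.5, 17.3 and 9.78 from WT at the KO depth. Rad50 (16 reads), Rnf168 (17) and Aptx (19) were in WT only. Of 6 genes of alternative end joining, Parp1, Lig3, Xrcc1 and Polq were in both lists and Lig1 in WT only. Parp1, Lig3, Xrcc1 and Polq held 15, 14, 11 and 14 reads in KO, against 17.3, 14.3, 11.3 and 14.3 from WT at the KO depth.

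Of 13 transcription factor genes known to act on Rag or Dntt in lymphocytes, 1 had a gene-end region in KO and 3 in WT, beside the 21.1% of all genes with one in KO and 34.6% in WT. Tcf3, which encodes E2A, had 11 reads in KO and 19 in WT (14.3 at the KO depth). Satb1 and Bcl11b, with 17 and 20 reads, were in WT only. Tcf12, Ikzf1, Runx1, Foxo1, Foxp1, Gata3, Ets1, Myb, Lef1 and Tcf7 had a region at an annotated end in neither list.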

How the data were processed

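The members and gene lists were chosen with earlier results of these data known. Per the labels, both replicates of a group went into a single deposited list. Per the submitters' processing notes, the tools included MACS2 2.1.4, Bowtie2, Trim Galore, FastQC, GATK, Picard 4.1.5.0 and deepTools 3.4.1 on mm10. Their settings, a transposase offset and duplicate removal are not given in the sources used here. Each deposited line carries the authors' score, fold enrichment at the summit, -log10 p, -log10 q and summit offset. These describe, rank or filter regions inside 1 list.

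Whole summit reads and the background were solved from fold and p, on 100% of lines within 0.05 of the deposited -log10 p. Reads in 10 kb are the local background over 0.02, assuming an extension of 200 bp. Depth was taken as the genome background, and library totals were not used here. Gene positions came from a RefSeq table of GRCm38.p6, and start sites and strands from its promoter sequences. Regions counted as shared when they overlapped by at least 1 bp. Genes counted as called in both lists when each list had a gene-end region, whether or not the 2 regions overlapped. The genes named are the 10 members, pathway genes with a gene-end region, and genes at or next to regions in the windows. Transcription factor genes without a region are named as well. No test between groups was made. Alternatives changed the gene-end window, window size, overlap rule, -log10 q minimum or length of the WT list. Using start sites in place of gene ends was chosen after seeing the data. The scripts were tested on simulated lists and ran in Python 3.11.15 with scipy 1.17.1, pandas 2.3.3 and numpy 2.4.6.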

Additional observations from a re-analysis of the deposited data

How the results depend on the processing

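Each list pooled both replicates, so no replicate could be left out, and no difference has a replicate check. No paired analysis was possible because the lists hold no value per replicate. With a -log10 q of at least 10 in both lists, the 10 genes had a gene-end region in both lists in 2 cases (Dclre1c and Prkdc) in place of 4, and the pathway list in 1 case in place of 16. Of all genes called in WT at a gene end, the share also called in KO was 55.8% at a -log10 q of at least 5, 41.5% at 10, and 77.9% with the WT list limited to the length of the KO list, in place of 59.4%. The WT calls at Rag1 and Rag2 held under all 6 alternatives run on the count of genes called in WT only. The nearest KO region lay 16.0 kb before the Rag2 start, so no alternative could have added a KO call at either gene. Their absence from the KO list was therefore not checked by these alternatives. Other genes moved. Nhej1 joined the genes called in WT only at a -log10 q of at least 5, Xrcc4 at 10, Dntt with a window of 2000 bp and Xrcc6 with start sites. Xrcc5 left them at a -log10 q of at least 10 and with the shortened WT list. The share of WT regions over the windows with a KO region lay between 29.2% and 54.5% over 8 alternatives, inside its interval. That interval, 22.1 to 63.4, is so wide that lying inside it is a weak check. The part of depth in regions missing from the KO list was not tested.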

Other observations

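Of the starts shared by a pair of genes, those of Xrcc4 with Tmem167 were in both lists and those of Xrcc6 with Desi1 in WT only. The start that Lig4 shares with Abhd13 was in neither list. Prkdc and Mcm4, which lie 44 bp apart, could not be placed here because neither has a start entry. Above the Dntt window, the nearest region lay inside Arhgap19 in KO (609 kb beyond the window, 12 reads) and inside Tm9sf3 in WT (104 kb, 19 reads). These values were looked at after the lists had been seen.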
